A study of Mus musculus with 3 samples.

Results

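The genes described here encode endocytic receptors and brush border proteins, and they were chosen by name. *Amn*, *Cubn*, *Lrp2*, *Dab2* and *Lrpap1* serve receptor-mediated uptake. *Vil1*, *Ezr*, *Pdzk1*, *Dpp4* and *Anpep* belong to microvilli and the brush border. All 10 had reads in all 3 libraries, out of 17633 genes with a read in any library. The libraries came from the endoderm, the mesoderm and the epiblast of E7.5 mouse embryos of the ICR strain, an outbred stock for which no genetic change or treatment is given. The germ layers of the embryonic region were separated by hand after digestion with trypsin and pancreatin, and the epiblast sample holds the neuroectoderm and the primitive streak. Each germ layer is 1 library of RNA pooled from many embryos, so the differences below have no replicate check, and the tests compare libraries and not conditions. The libraries held 41.7 M reads on genes in endoderm, against 40.8 M in mesoderm and 42.7 M in epiblast.

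Cubilin, encoded by *Cubn*, is a large peripheral receptor that has no membrane anchor of its own. Amnionless (*Amn*) anchors cubilin at the apical membrane, and megalin (*Lrp2*), a giant member of the LDL receptor family, takes up many ligands of its own and works beside cubilin. The adaptor Dab2 links the tails of such receptors to clathrin coats, and the chaperone RAP (*Lrpap1*) guards megalin against early ligand binding in the endoplasmic reticulum. These proteins act in epithelia that absorb protein, such as the proximal tubule of the kidney and the visceral endoderm. The visceral endoderm covers the early embryo, takes up maternal nutrients through apical microvilli before a placenta exists, and secretes serum proteins. At E7.5 the outer endoderm of the embryonic region is a mixture of visceral cells and of definitive endoderm cells that intercalate among them. These cell types cannot be told apart in a bulk library, and neither can fewer cells of a type and less RNA per cell.

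In endoderm, 9 of the 10 genes were at their highest level, with a median of 114 RPKM (reads scaled for gene length and library size). The median of the 10 was 3.36 RPKM in mesoderm and 5.21 RPKM in epiblast. Together they took 505718 reads in endoderm, or 1.21% of the library, against 0.0396% of the mesoderm library and 0.0564% of the epiblast library. By RPKM, 7 of them stood among the top 1000 genes in the endoderm, 0 in the mesoderm and 1 in the epiblast, which was *Ezr*. *Anpep* was the exception, with its highest level in mesoderm and its lowest in endoderm. The other genes differed in what remained outside the endoderm. *Amn*, *Cubn*, *Vil1* and *Dpp4* were below 1% of their endoderm RPKM in both other libraries, a line drawn after the values were seen, while *Lrp2*, *Dab2*, *Lrpap1*, *Ezr* and *Pdzk1* kept between 1.02% and 31.8%.

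**Figure D1:**
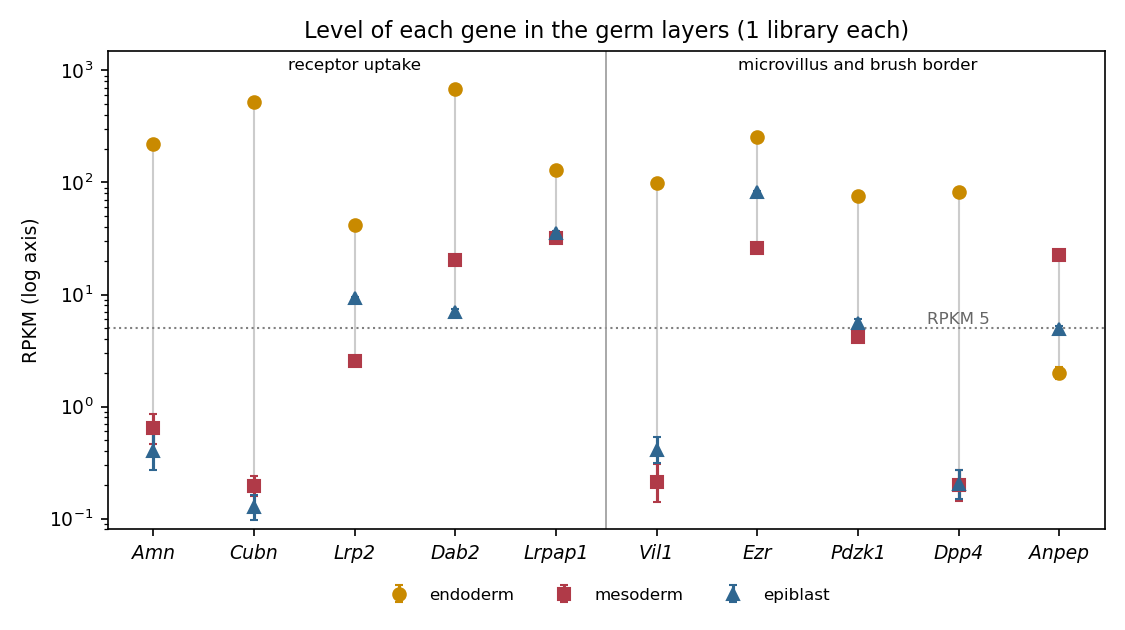
RPKM of each of the 10 genes (log axis) in the 1 library of endoderm, mesoderm and epiblast, with exact 95% Poisson intervals that cover counting error only; the dotted line marks 5 RPKM. Endoderm is highest for 9 genes, mesoderm and epiblast lie below 1 RPKM for *Amn*, *Cubn*, *Vil1* and *Dpp4*, and the order turns round for *Anpep*.

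*Amn*, *Cubn*, *Vil1* and *Dpp4* had nearly all their reads in endoderm, so the DNA before their start sites is shown here. The lines give the 250 bases upstream of the RefSeq start, 5′ to 3′ on the strand of the gene, in the build GRCm38.p6. Capitals mark matches to 4 short motifs of factors that act in endoderm, which were searched on both strands.
*Amn*, chr12:111270846-111271095, plus strand: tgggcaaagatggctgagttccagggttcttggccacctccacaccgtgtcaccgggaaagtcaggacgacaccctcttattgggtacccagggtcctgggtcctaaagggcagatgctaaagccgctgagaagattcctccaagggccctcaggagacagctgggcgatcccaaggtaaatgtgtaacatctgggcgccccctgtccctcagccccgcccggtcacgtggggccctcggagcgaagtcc
*Cubn*, chr2:13491877-13492126, minus strand: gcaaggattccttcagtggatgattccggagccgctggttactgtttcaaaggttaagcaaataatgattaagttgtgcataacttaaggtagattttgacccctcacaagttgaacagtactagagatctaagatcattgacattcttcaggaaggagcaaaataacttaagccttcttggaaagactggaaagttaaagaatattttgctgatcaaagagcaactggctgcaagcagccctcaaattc
*Vil1*, chr1:74409134-74409383, plus strand: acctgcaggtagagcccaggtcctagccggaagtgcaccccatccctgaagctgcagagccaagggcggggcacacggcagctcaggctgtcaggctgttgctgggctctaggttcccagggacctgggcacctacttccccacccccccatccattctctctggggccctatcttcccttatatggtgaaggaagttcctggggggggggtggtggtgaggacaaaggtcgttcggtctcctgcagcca
*Dpp4*, chr2:62412232-62412481, minus strand: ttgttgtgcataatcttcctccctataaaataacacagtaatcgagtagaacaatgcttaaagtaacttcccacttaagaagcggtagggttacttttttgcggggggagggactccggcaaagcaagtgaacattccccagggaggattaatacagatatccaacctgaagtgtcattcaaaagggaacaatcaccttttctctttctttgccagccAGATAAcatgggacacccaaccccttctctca
The letters searched were GTTAAT for HNF1, CAAAGTCCA for HNF4, AGATAA for factors of the GATA family and TGTTTAC for FOXA. In these 4 windows the search found 1 match, AGATAA in *Dpp4*, 27 to 32 bases before the start, and AGATAA is found in 9.99% of 32851 promoters. Over all 10 genes, the only other match was GTTAAT upstream of the second of 2 *Dab2* starts, which 6.43% of promoters hold. CAAAGTCCA, found in 0.384% of promoters, and TGTTTAC, found in 3.17%, matched in none of the 10. Thus 2 of 10 genes held any of the motifs, against 18.3% of all promoters. A match is a run of letters and not a bound site, and the absence of these letters in 250 bases says nothing about a factor. The windows of the *Cubn* and *Dpp4* starts were low in G and C, at 39.6% and 43.6%, with 2 and 4 CpG dinucleotides, where the median of all promoters was 52.4% and 6. *Amn* had 11 CpG dinucleotides and *Vil1* 5. Low counts were not particular to these genes, since the *Pdzk1* starts had 4 and 5, and the *Dab2* starts 2 and 17, the first of them with the lowest share of G and C, 36.8%. *Lrpap1* had 14, *Lrp2* 18, *Anpep* 23 and *Ezr* 32.

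Differences between libraries were called with the study's criteria, RPKM>5 in at least 1 of the pair, Fold Change>2 and FDR<0.001. This FDR was that of the Audic and Claverie exact test, run on the read counts. In endoderm against mesoderm, 9 of the 10 genes were higher in endoderm and 1 was higher in mesoderm. Of the 8867 genes with RPKM>5 in this pair, 14.4% were called higher in endoderm and 8.56% higher in mesoderm. In endoderm against epiblast, 9 genes were higher in endoderm and 0 in epiblast, where 15.7% and 8.94% of 8843 genes were called in these directions. *Anpep* reached RPKM>5 in neither library of that pair, so it could not be called. In mesoderm against epiblast, 6 of the 10 reached RPKM>5, and 2 were higher in mesoderm and 2 in epiblast. The share of all 8340 genes in that pair was 5.3% and 5.02%. On the scale of log2(RPKM + 0.1), the median difference of the 10 genes was 4.61 for endoderm over mesoderm, 5.17 for endoderm over epiblast and -0.10 for mesoderm over epiblast. For all genes with RPKM>5 it was -0.10, -0.08 and 0.02. Gene positions below are those of GENCODE M21 on GRCm38. Folds are ratios of RPKM with exact 95% intervals, which cover counting error only. For *Amn*, *Cubn*, *Vil1* and *Dpp4* the divisor is below 1 RPKM, so the size of the fold depends on how low values are treated. With 1 RPKM added to each value, their folds over mesoderm and epiblast lay between 68.8 and 466, and between 240 and 4159 without it.

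**Figure D2:**
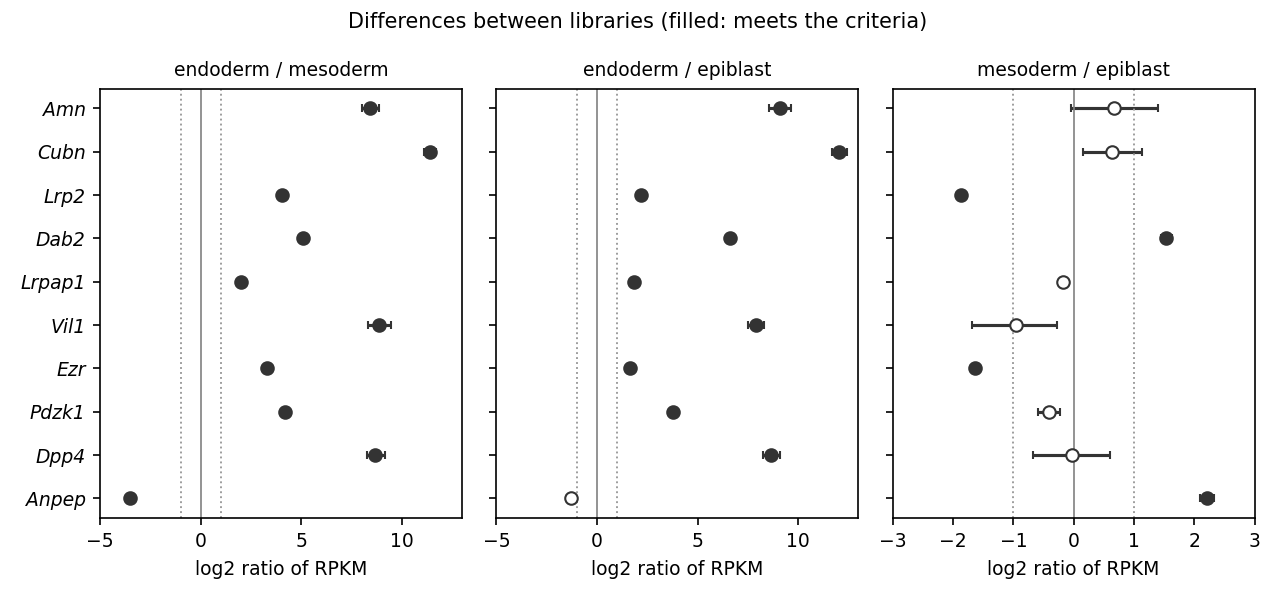
log2 ratio of RPKM of each gene in the 3 pairs of libraries, with exact 95% intervals for counting error; filled points met the criteria, open points did not, dotted lines mark a 2-fold difference, and the axis of the right panel is narrower. In both endoderm pairs 9 genes lie to the right of 0 and *Anpep* to the left, while mesoderm and epiblast differ by less than 5-fold for every gene.

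*Cubn* (ENSMUSG00000026726.10, chr2:13276338-13491813, minus strand) showed the widest contrast of the 10. It had 247454 reads in endoderm, against 91 in mesoderm and 61 in epiblast, or 524, 0.196 and 0.126 RPKM. The endoderm level was 2667-fold (2172 to 3312) that of mesoderm and 4159-fold (3238 to 5437) that of epiblast. In endoderm the reads covered 99.9% of the gene length, and the few reads elsewhere covered 42.5% in mesoderm and 35.9% in epiblast. The 1.56-fold difference between mesoderm and epiblast (1.12 to 2.19) was below 5 RPKM in both and was not called. A transcript on the other strand, *Gm13270*, shares 368 of the 14935 exon bases of *Cubn*, and whether counting used the strand is not given in the sources used here.

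*Amn* (ENSMUSG00000021278.7, chr12:111271095-111276426, plus strand), the membrane anchor of cubilin, had 15370 reads in the endoderm, 44 in the mesoderm and 29 in the epiblast. This was 219, 0.639 and 0.403 RPKM. Endoderm was 343-fold (255 to 472) above mesoderm and 543-fold (378 to 812) above epiblast. Mesoderm and epiblast differed by 1.59-fold with an interval from 0.970 to 2.63, so a difference was not detectable at this depth. The receptor and its anchor were not in 1 fixed proportion over the layers. Per length, *Cubn* was 2.39 times (2.35 to 2.43) the level of *Amn* in endoderm, but 0.307 times (0.212 to 0.451) in mesoderm and 0.313 times (0.198 to 0.505) in epiblast.

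*Lrp2* (ENSMUSG00000027070.14, chr2:69424340-69586065, minus strand), which encodes megalin, had 26861 reads in endoderm, against 1612 in mesoderm and 6117 in epiblast, or 41.7, 2.55 and 9.26 RPKM. It was thus the lowest of the 9 endoderm-high genes in endoderm and yet the third highest of the 10 in epiblast. Endoderm was 16.3-fold (15.5 to 17.2) above mesoderm and 4.502-fold (4.38 to 4.63) above epiblast. Epiblast was 3.63-fold (3.44 to 3.84) above mesoderm, which met the criteria. The reads covered 92.7% of the gene length in mesoderm and 99.0% in epiblast, unlike those of *Cubn*. The balance of the receptors therefore differed between the layers. *Cubn* was 12.6 times the *Lrp2* level per length in endoderm (12.4 to 12.7), 0.0770 times in mesoderm (0.0616 to 0.0951) and 0.0136 times in epiblast (0.0104 to 0.0175).

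*Dab2* (ENSMUSG00000022150.16, chr15:6299788-6440712, plus strand), the clathrin adaptor, was the highest of the 10 in endoderm. Its reads were 128693 in the endoderm, 3730 in the mesoderm and 1350 in the epiblast, or 684, 20.2 and 6.99 RPKM. Endoderm was 33.8-fold (32.8 to 34.96) above mesoderm and 97.7-fold (92.6 to 103) above epiblast. Between the other layers the order was the reverse of that of *Lrp2*, with *Dab2* 2.89-fold (2.71 to 3.08) higher in mesoderm than in epiblast. Per length, *Dab2* was 16.4 times the *Lrp2* level in endoderm, 7.92 times in mesoderm and 0.755 times (0.711 to 0.801) in epiblast, the only layer where the adaptor was below the receptor. A processed pseudogene on the other strand, *Gm18888*, overlaps 211 exon bases of *Dab2*.

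*Lrpap1* (ENSMUSG00000029103.16, chr5:35091501-35105766, minus strand), the chaperone of megalin, had the smallest endoderm excess over mesoderm. It had 15721 reads in endoderm, against 3784 in mesoderm and 4451 in epiblast, or 129, 31.7 and 35.7 RPKM, and was the highest of the 10 in mesoderm. Endoderm was 4.07-fold (3.93 to 4.22) above mesoderm and 3.62-fold (3.50 to 3.74) above epiblast. The 1.13-fold excess in epiblast over mesoderm (1.08 to 1.18) did not reach the fold criterion. In every layer the chaperone stood above its receptor per length, by 3.10 times in endoderm (3.04 to 3.16), 12.4 times in mesoderm (11.7 to 13.2) and 3.85 times in epiblast (3.70 to 4.004).

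Among the microvillus and brush border genes, *Vil1* (ENSMUSG00000026175.12, chr1:74409376-74435559, plus strand) encodes villin, which bundles actin in the core of the microvillus. It had 12869 reads in the endoderm, 27 in the mesoderm and 55 in the epiblast, or 99.1, 0.212 and 0.413 RPKM. Endoderm was 467-fold (321 to 710) above mesoderm and 240-fold (184 to 319) above epiblast. The reads outside endoderm were few but not confined to 1 place, since they covered 47.5% of the gene length in mesoderm and 81.9% in epiblast. *Usp37*, on the other strand, shares 49 exon bases with *Vil1* and had between 2785 and 3511 reads in each library. The part of these shared bases in the 27 and 55 reads was not tested.

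*Ezr* (ENSMUSG00000052397.8, chr17:6738041-6782784, minus strand) encodes ezrin, which ties the actin core to the membrane. It was the highest of the 10 in epiblast, with 32795 reads in endoderm, against 3278 in mesoderm and 10697 in epiblast, or 256, 26.1 and 81.6 RPKM. Endoderm was 9.81-fold (9.47 to 10.2) above mesoderm and 3.14-fold (3.08 to 3.21) above epiblast, and epiblast was 3.12-fold (3.001 to 3.25) above mesoderm. Its exons share 4 bases with *Sytl3* on the other strand, which had at most 118 reads in a library. The bundler and the linker of the microvillus were far from parallel. Per length, *Vil1* was 0.386 times the *Ezr* level in endoderm (0.379 to 0.394), 0.0081 times in mesoderm (0.0053 to 0.0118) and 0.0051 times in epiblast (0.0038 to 0.0066).

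*Pdzk1* (ENSMUSG00000038298.14, chr3:96829284-96870926, plus strand) encodes a PDZ scaffold under the brush border membrane that holds transporters in place. Its reads were 7696 in the endoderm, 414 in the mesoderm and 576 in the epiblast, or 75.9, 4.16 and 5.54 RPKM. Endoderm was 18.2-fold (16.5 to 20.2) above mesoderm and 13.7-fold (12.6 to 14.9) above epiblast, and the 1.33-fold difference between the other layers (1.17 to 1.51) did not reach the fold criterion. Genes on the other strand overlap 41.7% of the 3556 exon bases annotated to *Pdzk1*. The counts used a length of 2435 bases, so the share of counted bases that overlap is not known. Among the overlapping genes, *Gpr89* had 1681, 820 and 897 reads in the same order. The lower *Pdzk1* values are thus less certain than the others if the strand was not used. The *Pdzk1* reads covered 98.4% of the gene length in endoderm, 97.7% in mesoderm and 96.6% in epiblast.

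*Dpp4* and *Anpep* both encode peptidases anchored in the brush border membrane, and they ran in opposite directions. *Dpp4* (ENSMUSG00000035000.8, chr2:62330073-62412231, minus strand), a dipeptidyl peptidase, had 17972 reads in endoderm, against 43 in mesoderm and 46 in epiblast, or 81.9, 0.1998 and 0.204 RPKM. Endoderm was 410-fold (304 to 567) above mesoderm and 401-fold (300.2 to 547) above epiblast. Between mesoderm and epiblast a difference was not detectable at this depth, with a ratio of 1.02 in favour of epiblast and an interval from 0.660 to 1.59. An antisense transcript, *Gm13561*, shares 232 of its 6319 exon bases. *Anpep* (ENSMUSG00000039062.15, chr7:79821803-79861059, minus strand), aminopeptidase N, had 287 reads in the endoderm, 3172 in the mesoderm and 717 in the epiblast, or 2.004, 22.6 and 4.88 RPKM.

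*Anpep* was thus 11.3-fold (9.98 to 12.8) higher in mesoderm than in endoderm and 4.62-fold (4.26 to 5.02) higher in mesoderm than in epiblast. Its epiblast level was 2.44-fold (2.12 to 2.80) the endoderm level, with both below 5 RPKM, and it was not called. Per length, *Dpp4* was 40.9 times the *Anpep* level in endoderm (36.4 to 46.1), 0.0088 times in mesoderm (0.0064 to 0.0119) and 0.0419 times in epiblast (0.0304 to 0.0565). The *Anpep* reads covered between 96.5% and 97.8% of the gene length in the 3 libraries, so the low endoderm level came from reads along the whole gene.

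By RPKM, the order in endoderm was *Dab2*, *Cubn*, *Ezr*, *Amn*, *Lrpap1*, *Vil1*, *Dpp4*, *Pdzk1*, *Lrp2* and *Anpep*, and no neighbours in it had overlapping 95% counting intervals. The order in mesoderm was *Lrpap1*, *Ezr*, *Anpep*, *Dab2*, *Pdzk1*, *Lrp2*, *Amn*, *Vil1*, *Dpp4* and *Cubn*. There the intervals of *Vil1*, *Dpp4* and *Cubn*, at 0.212, 0.1998 and 0.196 RPKM, overlapped. In epiblast the order was *Ezr*, *Lrpap1*, *Lrp2*, *Dab2*, *Pdzk1*, *Anpep*, *Vil1*, *Amn*, *Dpp4* and *Cubn*. The intervals of *Pdzk1* and *Anpep* overlapped, and so did those of each neighbouring pair among the last 4. The counting interval leaves out the variation between embryos and dissections, which 1 library per layer cannot give. *Cubn* was second in endoderm and last in both other layers.

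The levels outside the endoderm library are set beside those of 12 visceral endoderm markers. As a percentage of the endoderm RPKM, *Cubn* was at 0.0375% in mesoderm and 0.0240% in epiblast, and *Amn* at 0.292% and 0.184%. *Vil1* was at 0.214% and 0.417%, and *Dpp4* at 0.244% and 0.250%. Of the 12 markers, 9 were below 1% in each layer, and the median of the 12 was 0.0957% in mesoderm and 0.151% in epiblast. The 3 above were *Gata4*, *Gata6* and *Cited1*, which reached 58.7%, 208% and 7.88% in mesoderm and 3.51%, 5.13% and 3.48% in epiblast. Among the low markers, *Ttr*, a carrier of thyroid hormone, was at 0.0606% and 0.0150%, and *Rbp4*, the carrier of retinol, at 0.20% and 0.242%. The share of endoderm RNA in the *Amn*, *Cubn*, *Vil1* and *Dpp4* reads of the other layers was not tested. *Lrp2*, *Lrpap1*, *Ezr* and *Pdzk1* stood at 5.49% or more in both layers, and *Dab2* at 2.96% in mesoderm and 1.02% in epiblast. That these genes lay above the 9 low markers follows from the 1% line, which was drawn after the values were seen.

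**Figure D3:**
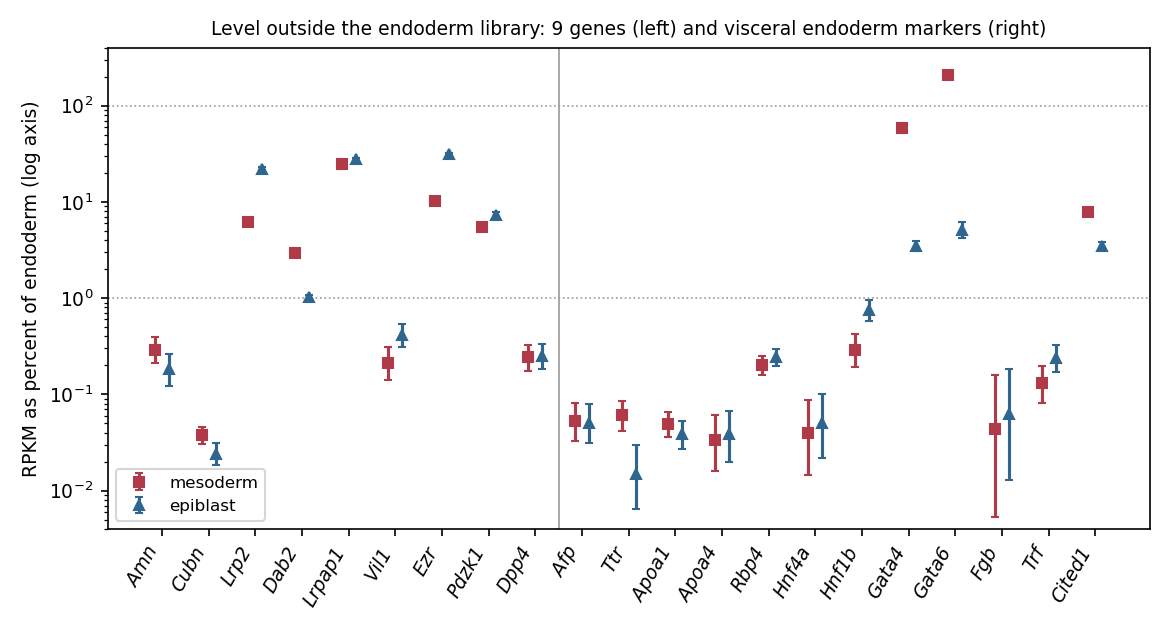
RPKM in mesoderm and epiblast as a percentage of the endoderm RPKM (log axis) for 9 of the 10 genes and for 12 visceral endoderm markers, with exact 95% counting intervals; *Anpep*, at 1127% and 244%, is left out. *Amn*, *Cubn*, *Vil1* and *Dpp4* lie below 1% among the low markers, and the other 5 genes lie at or above 1.02%.

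The labels of the libraries were checked with marker lists. The summed RPKM of the visceral endoderm markers was 5778 in endoderm, against 93.6 in mesoderm and 17.1 in epiblast, with all 12 detected in each library. For 10 definitive endoderm markers it was 548, 88.2 and 30.9, for 10 mesoderm markers 46.2, 642 and 152, and for 10 epiblast markers 298, 300 and 1854. Parietal endoderm markers summed to 557, 366 and 194, and trophoblast and extra-embryonic ectoderm markers to 56.3, 257 and 87.5, with no reads of *Tpbpa*, *Prl3d1* or *Prl2c2*. Most of the mesoderm sum was *Hand1*, at 222 RPKM, which is also on the mesoderm list, and of the 7 with reads it alone was highest in mesoderm, while 4 were highest in epiblast and 2 in endoderm. Maternal decidua markers summed to 35.02, 42.7 and 9.09 with no reads of *Prl8a2*, and primitive erythroid markers to 3.75, 6.65 and 4.21, with no reads of *Hbb-y* or *Hba-x*. The part of these other cells in the levels of the 10 genes was not tested.

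Among the 9135 genes with RPKM>5 in at least 1 library, 137, or 1.5%, were more than 5 log2 units above both other layers in endoderm on the scale of log2(RPKM + 0.1). *Amn*, *Cubn*, *Dab2*, *Vil1* and *Dpp4* were 5 of these. By distance in the pair of endoderm log2 ratios, the genes nearest to *Cubn* were *Apoa1*, *Apob* and *Apoa4*, at 0.08, 0.28 and 0.50 log2 units. The added 0.1 RPKM is near the *Cubn* levels outside endoderm, 0.196 and 0.126 RPKM, so these distances depend on it. Without it, *Cubn* was 2667-fold above mesoderm and 4159-fold above epiblast. *Apoa1* was then 2024-fold and 2605-fold, *Apob* 2460-fold and 2766-fold, and *Apoa4* 2996-fold and 2610-fold, so *Apoa1* was no longer the nearest. The genes nearest to *Amn*, with 0.1 RPKM added, were *Car7*, *Ctsh* and *Fgg*, at 0.54, 0.57 and 0.67. *Fgg* had only 2 reads in mesoderm and 3 in epiblast, so its distance rests on the added constant. *Lrp2* stood in a denser region, with *Vamp8*, *Abcc4* and *Cgn* at 0.10, 0.13 and 0.14. *Vamp8* had 107 RPKM in the endoderm, 6.85 in the mesoderm and 22.4 in the epiblast. Likeness here rests on 3 libraries only.

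**Figure D4:**
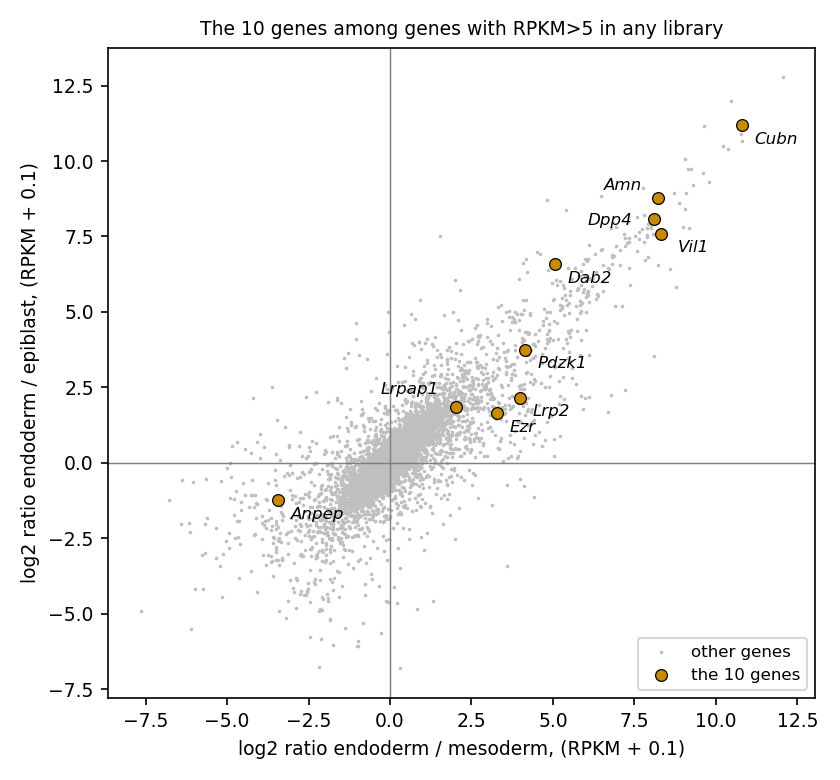
log2 ratio of endoderm over mesoderm (horizontal) and of endoderm over epiblast (vertical), on RPKM + 0.1, for 9135 genes with RPKM>5 in at least 1 library, with the 10 genes in colour. *Cubn* lies near the upper end at 10.79 and 11.18, *Amn*, *Vil1* and *Dpp4* lie together near 8, and *Anpep* is the 1 gene of the 10 below 0 on both axes.

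The surrounding machinery was described with 144 further genes in 8 lists, of which 137 had reads. In endoderm against mesoderm, 50 were higher in endoderm and 4 in mesoderm, in endoderm against epiblast 48 and 4, and in mesoderm against epiblast 3 and 5. The median of log2(RPKM + 0.1) differences over the 137 genes was 0.84, 0.78 and 0.06. With no added constant and up to 3 reads taken as 3, it was 1.03 and 1.05 in the endoderm pairs. The shares of all genes called are those given above, with medians of -0.10 and -0.08. Those values are over genes with RPKM>5, which 95 of the 137 reached in each endoderm pair. Over all genes with a read in the pair, the medians were -0.088 and -0.087. The lists differed widely among themselves.

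Among the 8 lists, the ligands of cubilin and megalin had the most calls for their number. Of 15 genes, 11 were higher in endoderm than in mesoderm and 12 higher than in epiblast, with 0 in the other direction, and *Alb* and *Gif* had no reads. Over the list, the median difference was 7.63 and 7.40, or 8.97 and 8.69 with low reads taken as 3. *Apoe*, the apolipoprotein of remnant particles, had the highest level of the list, at 2952 RPKM in endoderm, against 207 in mesoderm and 92.8 in epiblast. *Apob*, the core protein of lipoprotein particles, was 2460-fold above mesoderm, with 618 RPKM in endoderm and 0.251 in mesoderm. *Ttr* was 6686-fold above epiblast, from 1013 RPKM in endoderm and 8 reads in epiblast. *Apoa1*, *Rbp4*, *Ttr* and *Trf* of this list are also among the visceral endoderm markers.

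Most of megalin's relatives in the LDL receptor family did not meet the criteria. Of 11 genes, 3 were higher in endoderm than in mesoderm and 3 were higher in endoderm than in epiblast. The median difference was -0.46 and -0.05, or -0.63 and 0.01 with low reads taken as 3, so the sign of the second depends on the treatment of low reads. *Lrp5*, a Wnt co-receptor, had the highest level, at 52.7 RPKM in the endoderm, 17.6 in the mesoderm and 23.8 in the epiblast. *Sorl1*, a sorting receptor, was 9.45-fold higher in endoderm than in mesoderm, and *Lrp10* was 4.91-fold higher in endoderm than in epiblast.

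Of 16 other endocytic receptors, 15 had reads, 4 were higher in endoderm in each pair, and 1 was higher in epiblast than in endoderm. As a median, the difference was 0.43 and 0.65, or 0.45 and 1.76 with low reads taken as 3. *Folr1*, the folate receptor, had 129 RPKM in endoderm, against 0.156 in mesoderm and 0.481 in epiblast, which was 829-fold and 269-fold. The other 3 were *Scarb1*, *Fcgrt* and *Igf2r*, named after their values were seen. *Sort1*, sortilin, showed an excess of 2.02-fold in epiblast over endoderm.

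Most genes of the clathrin coat did not meet the criteria. Of 20 coat and adaptor genes, 3 were higher in endoderm than in mesoderm and 4 higher than in epiblast, with 0 in the other direction and a median difference of 0.35 and 0.54. These counts are near the shares of all genes called higher in endoderm, 14.4% and 15.7%. *Cltc*, the clathrin heavy chain, was the highest of them at 322 RPKM in the endoderm, 80.4 in the mesoderm and 70.4 in the epiblast, a 4.01-fold and a 4.58-fold difference. *Myo6*, a motor that moves toward the minus end of actin and binds Dab2, had 53.4, 0.610 and 0.664 RPKM, an 87.6-fold and an 80.5-fold difference. The others called were *Cltb* in both pairs and *Fcho2* against epiblast, named after their values were seen.

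Of 16 genes of endosome sorting and recycling, 9 were higher in endoderm than in mesoderm and 8 higher than in epiblast, with 0 in the other direction. The median difference was 1.21 and 1.08. *Rab11fip5*, a partner of the recycling GTPase Rab11, was 18.6-fold and 41.8-fold higher in endoderm, with 11.1 RPKM there. *Rab7*, the GTPase of late endosomes, had the highest level, at 190 RPKM in endoderm, against 114 in mesoderm and 108 in epiblast, and did not reach the fold criterion.

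Of 24 genes of the microvillus core and its link to the membrane, 10 were higher in endoderm and 1 in mesoderm in that pair, and 9 were higher in endoderm and 2 in epiblast in the other. Its median difference was 1.66 and 1.70, or 1.81 and 1.86 with low reads taken as 3. *Cdhr2*, a cadherin that joins the tips of microvilli, had 4833 reads in the endoderm, 8 in the mesoderm and 0 in the epiblast, so it was 592-fold above mesoderm and at least 1652-fold above epiblast, taken over 3 reads. *Podxl*, podocalyxin, had the highest level, at 418, 119 and 91.3 RPKM, and was 3.50-fold and 4.58-fold higher in endoderm. *Msn*, moesin, is a close relative of ezrin, and it went the other way. It had 13.6 RPKM in endoderm, against 77.8 in mesoderm and 48.1 in epiblast, a 5.72-fold excess of mesoderm and a 3.54-fold excess of epiblast over the layer where ezrin was highest.

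Most brush border enzymes and transporters were low everywhere. Of 26 genes, 22 had reads and 5 reached RPKM>5 in each endoderm pair, and 4 were higher in endoderm in each pair. The median difference was 0.46 and 0.34, or 1.82 and 1.74 with low reads taken as 3. *Slc7a9*, the light chain of a cystine transporter, had 32.1 RPKM in the endoderm, 0.102 in the mesoderm and 0.0850 in the epiblast, a 316-fold and a 377-fold difference. *Alpl*, tissue-nonspecific alkaline phosphatase, was the 1 called in the other direction, with 3.09, 16.6 and 21.8 RPKM, with a 5.37-fold excess of mesoderm and a 7.05-fold excess of epiblast over endoderm.

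Of 16 genes of apical polarity, 6 were higher in endoderm and 1 in mesoderm in that pair, and 4 were higher in endoderm than in epiblast. These genes had a median difference of 0.59 and 0.67. *Myo5b*, a motor that carries vesicles to the apical membrane, had 17.6 RPKM in endoderm, against 0.0700 in mesoderm and 0.109 in epiblast, a 252-fold and a 162-fold difference. *Cdc42*, a GTPase of polarity with many other roles, had the highest level, at 212, 196 and 170 RPKM, and was not called. *Anxa2*, a membrane-binding annexin, was 3.78-fold higher in mesoderm than in endoderm.

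**Figure D5:**
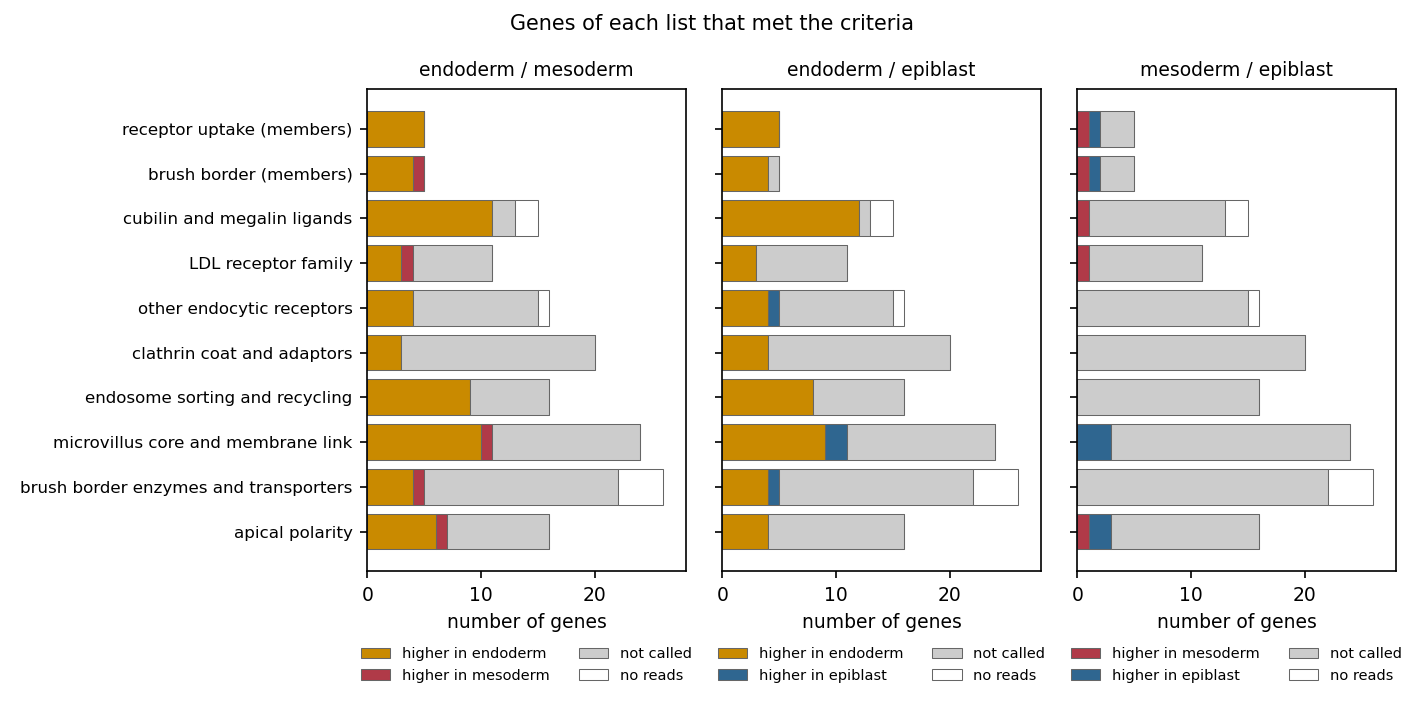
Number of genes of each list that were higher in one library or the other, not called, or without reads, for the 3 pairs of libraries; the first 2 bars hold the 10 genes themselves. The ligand bar is almost filled by endoderm (11 and 12 of 15), the coat bar is mostly not called, and few genes were called between mesoderm and epiblast.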

How the data were processed

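The authors sequenced RNA from each germ layer of E7.5 ICR embryos (endoderm, mesoderm, epiblast) in paired ends on an Illumina HiSeq instrument, 1 library for each layer. The authors deposited, per gene, the count of uniquely mapped reads without normalization. The deposited tables also give RPKM, gene length and the percent of that length covered by reads. The submitters' processing notes name TopHat and the builds mm10 and mm9, but the program, annotation and strand setting of the gene counts are not given in the sources used here. Genes absent from a table were given 0 reads, a count that allows up to 3.

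The 10 genes and all lists were chosen with earlier results of these data known. In each pair of libraries, a gene was called with the study's criteria: RPKM>5 in at least 1 of the pair, Fold Change>2 and FDR<0.001. This FDR was the Benjamini-Hochberg value, over all genes with a read in the pair, of the Audic and Claverie exact test (two-sided). The quasi-likelihood test of edgeR could not be fitted to 1 library per layer, so its exact test was an alternative, with the biological coefficient of variation set to 0.2 or 0.4. The others were RPKM>1, RPKM>10, Fold Change>4, a pseudocount of 1 RPKM, TMM, the median of ratios and the upper quartile. In each of the 8 further lists, the genes named had the highest RPKM or the largest called fold in a direction of an endoderm pair. For *Amn*, *Cubn* and *Lrp2*, the 3 genes nearest in both endoderm log2 ratios were named. *Foxf1* was matched to its form *Foxf1a* after the tables were seen. Intervals are exact Poisson or Clopper-Pearson at 95% and cover counting error only. Gene positions came from GENCODE M21 on GRCm38, and the upstream sequences from RefSeq on GRCm38.p6, which matched all 10 genes. The sequence at the RefSeq start of *Cubn*, which lies upstream of the GENCODE gene, did not open a GENCODE transcript. Neither did the sequence at the first of the 2 *Pdzk1* starts. Protein sequences were not analysed here. Some values of list genes are not reported here. The tools were R 4.3.3 with edgeR 4.0.16 and DESeq2 1.42.0, and Python 3.11.15 with SciPy 1.17.1, numpy 2.4.6, pandas 2.3.3 and matplotlib 3.10.9.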

Additional observations from a re-analysis of the deposited data

How the results depend on the processing

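No paired analysis was possible because each germ layer has 1 library, and no library could be left out. Of the 30 differences of the 10 genes, 23 were called, 0 changed direction under the 9 alternatives, and 12 were called in every one of them, among them the endoderm excess of *Amn*, *Cubn*, *Vil1*, *Dpp4* and *Dab2* over both other layers. A pseudocount of 1 RPKM kept all calls but lowered the endoderm folds over mesoderm and epiblast to 439 and 466 for *Cubn*, 134 and 157 for *Amn*, 82.6 and 70.9 for *Vil1* and 69.1 and 68.8 for *Dpp4*, and the uncalled *Vil1* ratio of epiblast over mesoderm from 1.95 to 1.17. With RPKM>1 the 2.44-fold excess of *Anpep* in epiblast over endoderm was called, and with the upper quartile it was called at 2.67-fold. With RPKM>10 the epiblast excess of *Lrp2* over mesoderm (3.63-fold) was lost. With Fold Change>4 this was lost too, with *Dab2* in mesoderm over epiblast (2.89-fold), *Ezr* in endoderm over epiblast (3.14-fold) and in epiblast over mesoderm (3.12-fold), and *Lrpap1* in endoderm over epiblast (3.62-fold). edgeR's exact test at an assumed coefficient of 0.2 lost *Dab2* (2.89-fold) and *Ezr* (3.12-fold) between mesoderm and epiblast. At 0.4 it lost these, *Lrp2* (3.63-fold) and *Anpep* (4.62-fold) between mesoderm and epiblast, *Ezr* (3.14-fold), *Lrp2* (4.502-fold), *Lrpap1* (3.62-fold) and *Pdzk1* (13.7-fold) in endoderm over epiblast, and *Anpep* (11.3-fold), *Ezr* (9.81-fold) and *Lrpap1* (4.07-fold) between endoderm and mesoderm.

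The genes called among the 10 in endoderm against mesoderm came to 7 at a coefficient of 0.4 in place of 10. In endoderm against epiblast they came to 7 with Fold Change>4 and 5 at 0.4, in place of 9. In mesoderm against epiblast they came to 1 with Fold Change>4, 2 at 0.2 and 0 at 0.4, in place of 4. Of the genes of the 8 lists, 36 were called with Fold Change>4 and 24 at 0.4 in endoderm against mesoderm in place of 54. In endoderm against epiblast there were 34 with Fold Change>4 and 22 at 0.4 in place of 52, and in mesoderm against epiblast 17 with RPKM>1, 1 with Fold Change>4, 3 at 0.2 and 1 at 0.4 in place of 8. The assumed coefficients stand in for a spread that 1 library per layer cannot give. TMM and the median of ratios each moved the median of all genes by 0.11 log2 units in both endoderm pairs and the upper quartile moved it by -0.13 in endoderm against epiblast. Depth limits the genes with fewest reads, such as *Vil1* in mesoderm with 27.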
